A study of Caenorhabditis elegans with 4 samples.

Results

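The regions described here are the binding regions of PHA-4 on chromosome V of Caenorhabditis elegans. They are the 1055 peaks of the combined list, the authors' 1 list for the whole series, whose chromosome column reads V, out of 3890 peaks in all. PHA-4 is the worm's FoxA factor, a forkhead transcription factor that binds the regulatory DNA of pharyngeal genes and acts as the organ selector of the pharynx, the worm's feeding organ. FoxA factors can bind compacted chromatin, and PHA-4 is also made in the intestine and rectum and is known for a role in adult lifespan under dietary restriction. The autosomes of this species have gene-rich centres with little recombination and arms richer in repeats. Chromosome V carries many of the large families of chemoreceptor genes, and also pha-4 itself.

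The study made 2 ChIP libraries of PHA-4 and, as their control, 2 Input libraries from lysate set aside before precipitation. All 4 came from L4 hermaphrodites, the last larval stage, of strain OP37 grown at 20 °C. Every sample therefore carried the unc-119(ed3) mutation on III and wgIs37, a bombarded transgene that holds unc-119(+) and pha-4 fused to TY1, EGFP and 3xFLAG, and the precipitation was made against the GFP tag. The genotype names no change at the worm's own pha-4, and the samples analysed include no strain without the tag. Each ChIP sample had a list of its own, the combined list stood for both, and of Input only the labels were used.

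The lists give intervals but no read counts, so the depth of each library is unknown. Ranks in the combined list follow the authors' q-value, with the lowest q first, and ranks in a replicate list follow its deposited score. The first 4569 peaks of replicate 1 and the first 4615 of replicate 2 share 1 highest score and are ordered among themselves only by the authors' peak number, so a rank up to there is a place in the deposited numbering and not a difference in score. Positions are in the WormBase WS220 build, and no genome or gene positions of that build were used, so peaks are given by place, without sequence or gene. Shares carry exact Clopper-Pearson 95% intervals, which treat neighbouring peaks as independent and cover counting error only. With 1 group of 2 libraries, and no label that states separate cultures for them, no test between groups was made, and the differences between chromosomes below are descriptions.

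In the combined list, peaks on V were many and narrow. V held 27.1% of the combined list and 468 kb of peak, or 2.24% of its 20.9 Mb, against 1.82% of the other 5 nuclear chromosomes together. Its median width was 340 bp with quartiles of 265 and 458 bp, against 399 bp with quartiles of 320 and 568 bp for the 2835 peaks elsewhere. No other chromosome had a median under 374 bp, the value on IV.

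A larger share of V peaks than of peaks elsewhere was very narrow. Peaks of at most 200 bp numbered 95 on V (9.0%, interval 7.35% to 10.9%) and 47 elsewhere (1.66%, 1.22% to 2.20%). The narrow peaks of V stood low in the list, with a median rank of 3303, and the highest of them had rank 1905. Peaks wider than 1 kb numbered 49 on V (4.64%, 3.46% to 6.09%), with 5.76% in the whole list. These wide peaks had a median rank of 70, 47 of them were found in both replicates, and 40 lay in clusters. Of the 175 peaks this wide elsewhere 99.4% were found in both, and of all V peaks 66.6% lay in clusters.

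In the combined list V was the densest chromosome per length and not per gene. It had 50.5 peaks per Mb, followed by III with 49.4 and IV with 38.6, and its peaks outnumbered those of any other chromosome. Against the protein-coding genes that RefSeq's WBcel235 table places on each chromosome, V had 21.1 peaks per 100 genes over 4995 genes. That was below III with 25.8 and X with 24.0, and above IV with 20.6, II with 14.9 and I with 10.7. V held 25% of these genes and 27.1% of the peaks, which is a description with no test. The replicate lists differed, as V held only 15.9% of replicate 1 and 15.8% of replicate 2. There III, with 13.8 Mb, had 3090 and 3150 peaks, against 3054 and 3081 on V with 20.9 Mb. In neither replicate list was V the densest chromosome.

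By q, V peaks were frequent at the very top of the list and slightly more frequent than elsewhere in its first 1945 ranks. Of the first 100 ranks, 43 were V peaks, while 565 of its peaks (53.6%, 50.5% to 56.6%) fell in the first 1945 ranks, against 48.7% of the peaks elsewhere. The first 972 ranks held 308 V peaks and 664 others, in a list of 1055 and 2835. The median rank was 1791 on V and 1988 on the other chromosomes. Ranks 1, 2, 13, 21, 25 and 48 all came from the fullest cluster, described below. Over their first 1000 peaks by number, a longer stretch than 100 ranks, the replicate lists did not show this lead. There 137 peaks in replicate 1 and 143 in replicate 2 lay on V, which held 15.9% and 15.8% of the whole lists. At their very start, ranks 1, 4 and 7 of replicate 1 and 2 and 6 of replicate 2 were V peaks of the fullest cluster. The best rank on another nuclear chromosome was 9 in replicate 1 and 11 in replicate 2. All these peaks share the highest score and are ordered only by peak number. Of the first 10 peaks of V all were found in both replicates, and their median width was 3099.5 bp. Elsewhere too, 98.5% of the peaks in the first 972 ranks were found in both.

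Along V, peaks were densest in the centre, less dense on the left arm and sparsest on the right arm. Cut into 3 parts of 6.97 Mb, the left part held 356 peaks, the centre 477 and the right part 222, which is 51.1, 68.4 and 31.8 peaks per Mb. The centre thus held 45.2% (42.2% to 48.3%) of the peaks in 33.3% of the length, with 43.3% for all chromosomes taken the same way. Replicate 1 had 1011, 1284 and 759 peaks from left to right, and replicate 2 had 1030, 1274 and 777. Both replicate lists gave the same order of the 3 parts as the combined list.

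The order held when peaks closer than 5 kb were joined and counted once, at 27.3, 34.6 and 21.1 per Mb, so the centre's lead was smaller for joined loci than for peaks. With the arms cut at 6 and 16 Mb it was 43.5, 65.1 and 29.1 peaks per Mb. The 3 parts differed little in width or in rank. Median widths were 325.5 bp on the left, 353 bp in the centre and 339 bp on the right, and median ranks were 1879, 1696 and 1912.5.

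In 1-Mb bins the 20 complete bins held 19 to 105 peaks, with a median of 48.5. The fullest was V:10000001-11000000, which also held the most peaks of replicate 1 (263) and of replicate 2 (271). The emptiest were V:17000001-18000000 and V:18000001-19000000, with 19 peaks each. The replicate lists had 73 and 96 peaks in the first of these and 97 and 87 in the second. From V:11000001-12000000 to V:12000001-13000000 the lists dropped together: the combined list had 74 and then 47 peaks, replicate 1 had 204 and then 102, and replicate 2 had 219 and then 94. The incomplete last bin, beyond 20 Mb, held 46 combined peaks, and 12 of these belong to the fullest cluster described below.

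**Figure D1:**
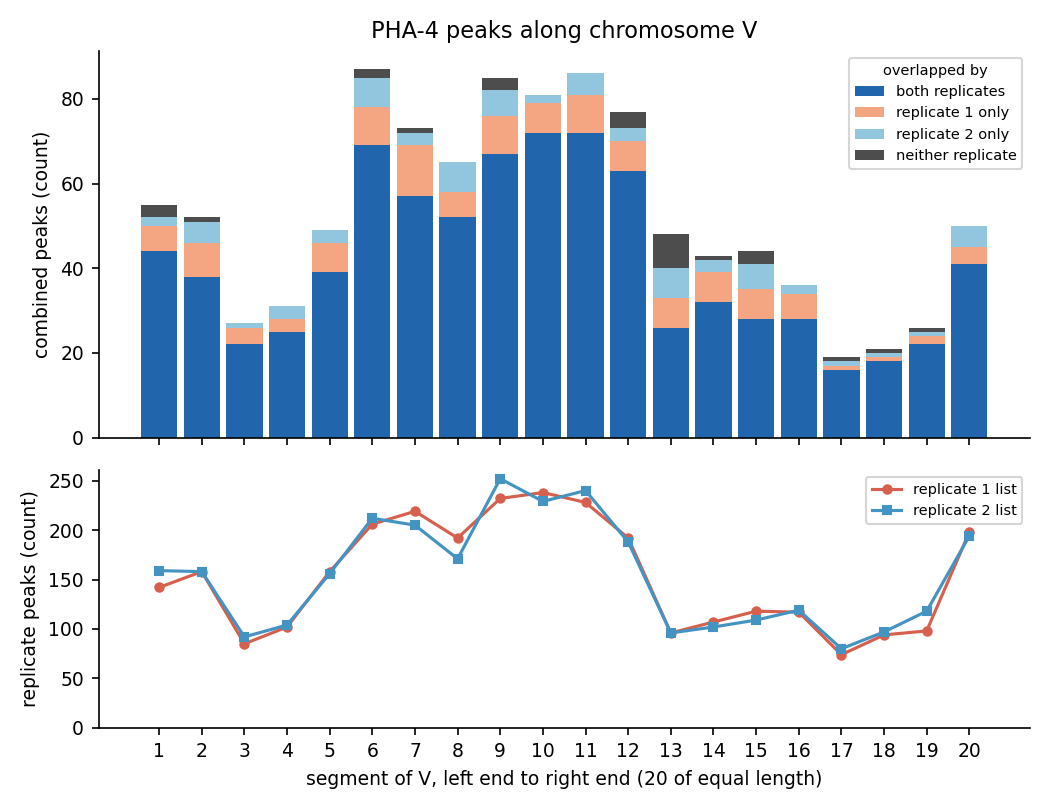
Counts of peaks in 20 segments of equal length along V, from its left to its right end. Bars are combined peaks, split by the replicate lists that overlap them, and lines are the peaks of each replicate list. Segments 6 to 12 hold the most combined peaks and segments 17 to 19 the fewest.

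Fewer V peaks than peaks elsewhere were found again in both replicate lists. A peak counted as found when at least 1 bp of a replicate peak overlapped it. Both replicates overlapped 831 V peaks (78.8%, 76.2% to 81.2%), with 88.6% for the whole list and 92.2% (91.2% to 93.2%) for the other chromosomes. Replicate 1 alone overlapped 122 (11.6%, 9.70% to 13.6%), with 5.66% in the whole list. Replicate 2 alone overlapped 73 (6.92%, 5.46% to 8.62%), with 4.34% in the whole list. Neither overlapped 29 (2.75%, 1.85% to 3.92%), with 1.41% in the whole list. Together, 195 peaks (18.5%, 16.2% to 21%) were found in 1 replicate only, with 10.0% in the whole list.

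The lower share on V held at every level of rank. In the first 972 ranks both replicates found 96.1% of 308 V peaks (93.3% to 98.0%), against 98.5% of 664 elsewhere (97.2% to 99.3%). From rank 973 to 1945 the shares were 88.3% on V (83.8% to 92%) and 95.5% elsewhere (93.7% to 96.9%). In the first of these classes the intervals overlapped, and the gap widened down the list. From rank 1946 to 2917 they were 67.9% on V (61.6% to 73.9%) and 90.1% elsewhere (87.7% to 92.2%), and from rank 2918 to 3890 they were 58.2% on V (51.9% to 64.3%) and 85.4% elsewhere (82.6% to 87.9%). In that last class the lowest share on another chromosome was 76.4% on III (69.1% to 82.7%).

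It also held at every width. Peaks of 201 to 300 bp were found in both replicates in 73.7% of 300 cases on V (68.3% to 78.6%) and 88.3% of 469 elsewhere (85% to 91%). Peaks of 301 to 400 bp gave 79.7% of 296 on V (74.7% to 84.2%) and 90.7% of 911 elsewhere (88.6% to 92.5%). Peaks of 401 to 600 bp gave 87.0% of 207 on V (81.6% to 91.2%) and 93.4% of 797 elsewhere (91.4% to 95.0%). At up to 200 bp and above 600 bp the intervals overlapped. The values were 49.5% of 95 V peaks (39.1% to 59.9%) and 63.8% of 47 others (48.5% to 77.3%) at up to 200 bp, and 92.6% of 108 V peaks (85.9% to 96.7%) and 97.9% of 436 others (96.1% to 99.1%) from 601 bp to 1 kb. Above 1 kb they were 95.9% of 49 V peaks (86.0% to 99.5%) and 99.4% of 175 others (96.9% to 100.0%). With the peaks elsewhere weighted to the mix of 4 rank classes and 6 width classes that V has, 90.3% of them were found in both. Unweighted, that value was 92.2%, so most of the gap remained after weighting by these broad classes. Rank and width can still differ within a class. Of 14 classes of rank and width with at least 20 peaks on each side, V was lower in 13.

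**Figure D2:**
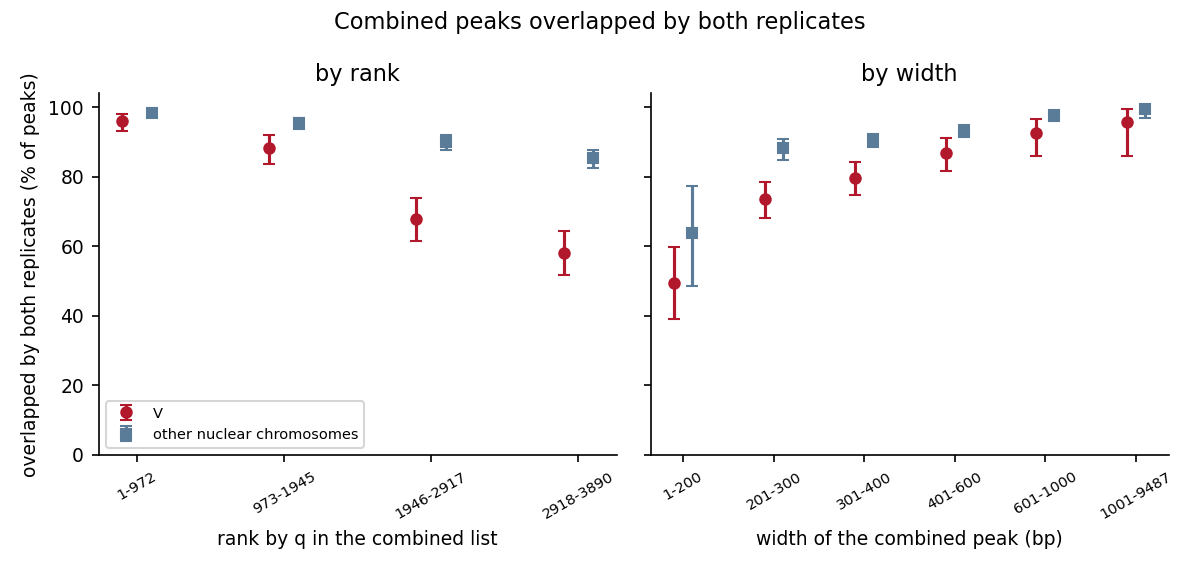
Share of combined peaks overlapped by both replicates (%), by rank by q (left) and by width in bp (right). Circles are V, squares the other 5 nuclear chromosomes together, and bars are exact 95% intervals. V lies below in every class, and the gap grows from 96.1% against 98.5% in the first rank class to 58.2% against 85.4% in the last.

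The 3 parts of V did not separate in this measure. Both replicates found 78.1% of the peaks on the left (73.4% to 82.3%), 80.3% in the centre (76.4% to 83.8%) and 76.6% on the right (70.4% to 82.0%), and the intervals overlap. The share found in 1 replicate only was 19.9%, 16.4% and 20.7% in the same order. Peaks found in neither replicate numbered 0 to 7 in the complete 1-Mb bins, with a median of 1. A stretch of 2 Mb at V:11600001-13600000, chosen after the values were seen as the one with the most such peaks, held 12 of the 29 among 115 peaks (10.4%, 5.51% to 17.5%). The rest of V held 17 among 940 (1.81%, 1.06% to 2.88%). As the stretch was picked for this count, a higher share there follows from the choice, and the intervals do not allow for it. In that stretch the median rank was 2203, against 1747 for the rest of V. Both replicates found 68.7% of its peaks, against 80.0%, which the same choice lowers in part.

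Where both replicates found a V peak, they placed it slightly less close together than they did elsewhere. The midpoints of their best-ranked peaks inside it lay a median of 55 bp apart (quartiles 21 and 126 bp, n = 831), against 46 bp (19 and 103 bp, n = 2615) on the other chromosomes. With exactly 1 peak of each replicate in the combined peak the medians were 50 bp on V (n = 620) and 38 bp elsewhere (n = 1841). Of these, 50.8% on V and 60.5% elsewhere lay within 50 bp. Replicate peaks are nearly all 316 or 320 bp wide, so these median distances are shorter than a peak. Both had to overlap the same combined peak, which keeps the distances short by construction.

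Over the 831 V peaks found in both, the rank by q and the best rank inside the peak had a Spearman rho of 0.60 for replicate 1 and 0.58 for replicate 2, with equal scores ranked by peak number. Between the replicates rho was 0.46, and between the rank by q and the width it was -0.72, so peaks of lower q tended to be wider. These are descriptions across peaks that share the same 2 libraries and are not independent.

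Wide peaks held several replicate peaks each. The 49 V peaks over 1 kb held on average 3.20 replicate 1 peaks (SD 2.41) and 3.33 replicate 2 peaks (SD 2.25), while the 691 of up to 400 bp held 0.931 (SD 0.418) and 0.854 (SD 0.451). On V 800 peaks held exactly 1 replicate 1 peak and 755 held exactly 1 replicate 2 peak. Peaks with 3 or more numbered 39 and 34.

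The peaks found in 1 replicate only were lower in rank and narrower than those found in both. Median ranks were 2771 for replicate 1 only, 2815 for replicate 2 only and 1438 for both, and median widths were 292.5, 277 and 356 bp. The best peak of the single replicate carried the highest score of its list in 55 of the 122 (45.1%) and in 38 of the 73 (52.1%). Among peaks found in both, the best replicate 1 peak did so in 58.4% and the best replicate 2 peak in 60.8%, while 22.1% and 21.8% of all V peaks of the replicate lists have that score. Single-replicate peaks thus had the highest score less often than peaks found in both, with no test. Peaks found in both were wider and could hold several replicate peaks, of which the best was counted. The lists at large are not a like set, because combined peaks overlapped 88.1% of replicate 1 peaks on V at the highest score and 24.7% of the rest. Of the 1182 replicate 1 peaks on V in combined peaks, 595 had the highest score. For replicate 2 it was 596 of 1125.

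The missing replicate often had a peak nearby. For the 122 found in replicate 1 only, the nearest replicate 2 peak lay a median of 980 bp away (quartiles 271 and 2297 bp), and for 62 of them (50.8%) it was closer than 1 kb. For the 73 found in replicate 2 only, the nearest replicate 1 peak lay a median of 1201 bp away (quartiles 445 and 2524 bp), and for 34 (46.6%) it was closer than 1 kb. On the other chromosomes these shares were 61.2% of 98 and 63.5% of 96. Peaks found in neither lay farther off, a median of 3019 bp from replicate 1 and 4714 bp from replicate 2.

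**Figure D3:**
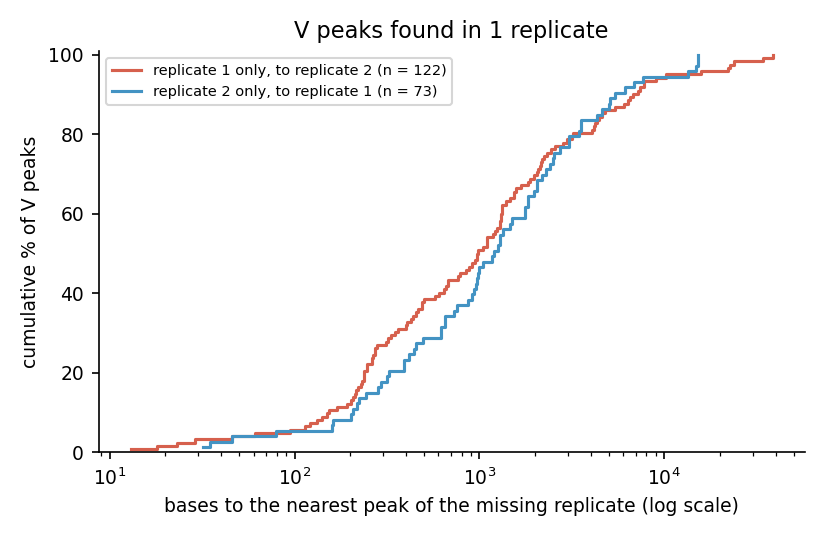
Cumulative share (%) of V peaks found in 1 replicate only, by the number of bases to the nearest peak of the replicate that lacks them, on a log scale. Of the 122 found in replicate 1 only, 50.8% have a replicate 2 peak closer than 1 kb, and of the 73 found in replicate 2 only, 46.6% have a replicate 1 peak that close.

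The foremost of these single-replicate peaks was V:9088545-9089298, with rank 23 in the combined list and 11 on V, 754 bp wide. It held 1 replicate 2 peak, which had the highest score of its list, and the nearest replicate 1 peak was 5008 bp away. The next of its kind were V:7831829-7832202 (rank 305, with a replicate 2 peak well below the highest score, at rank 15189), V:9273599-9274059 (rank 584), V:20412099-20412871 (rank 587) and V:6007666-6008120 (rank 808). The distance to replicate 1 was 2524 bp, 934 bp, 201 bp and 79 bp in that order.

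For replicate 1 only, the first was V:10716637-10717295, with rank 441 and 659 bp wide. It held 2 replicate 1 peaks, and a replicate 2 peak lay 221 bp away. It was followed by V:10940516-10941050 (rank 468), V:5031912-5032562 (rank 549), V:8445623-8446052 (rank 701) and V:12728280-12728608 (rank 812). In each of these, the first included, the best replicate 1 peak had the highest score of its list. The nearest replicate 2 peak lay between 1220 and 7790 bp away from the last 4.

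Among peaks found in neither replicate, V:13854281-13854679 had the lowest q, at rank 717, yet replicate peaks lay 455 and 489 bp from it. The others of lowest q were V:6192866-6193238 (rank 1251), V:264950-265971 (rank 1758), V:13313057-13313354 (rank 1766) and V:349084-349411 (rank 2048). The third of them was 1022 bp wide, 1 of only 2 V peaks over 1 kb not found in both replicates.

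Seen from the replicate lists, V peaks were shared between the replicates at close to the rate of the whole lists and lay in combined peaks more often. Replicate 1 had 3054 peaks on V, of which 1402 (45.9%, 44.1% to 47.7%) were overlapped by replicate 2, with 48.0% for its whole list and 46.2% to 51.3% on the other chromosomes. Replicate 2 had 3081, of which 1408 (45.7%, 43.9% to 47.5%) were overlapped by replicate 1, with 47.1% for its whole list and 44.9% to 50.1% on the other chromosomes. A combined peak overlapped 1182 of the replicate 1 peaks on V (38.7%, 37.0% to 40.5%), with 24.2% for the list, and 1125 of the replicate 2 peaks (36.5%, 34.8% to 38.2%), with 23.4% for the list. The highest share on another chromosome was 26.3% in replicate 1 and 26.1% in replicate 2, both on IV.

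At equal score the gap was wide. Among replicate 1 peaks at the highest score, a combined peak overlapped 88.1% of 675 on V (85.5% to 90.5%) and 60.2% of 3867 elsewhere (58.6% to 61.7%), and among those of replicate 2 it was 88.7% of 672 on V (86.0% to 91.0%) and 58.5% of 3914 elsewhere (57.0% to 60.1%). Below the highest score it was 24.7% on V and 9.17% elsewhere in replicate 1, and 22.0% on V and 9.18% elsewhere in replicate 2. The gap was also there in each class of rank. Among replicate 1 peaks of rank 2001 to 4000, all at the highest score, it was 84.8% of 296 on V (80.2% to 88.7%) and 47.1% of 1702 elsewhere (44.7% to 49.5%). From rank 4001 to 8000 it was 50.4% of 670 on V and 20.3% of 3329 elsewhere, and from rank 16001 on it was 11.4% of 501 on V and 3.88% of 2657 elsewhere. In replicate 2 the shares were 84.5% on V and 45.7% elsewhere at rank 2001 to 4000, and 48.0% on V and 20.8% elsewhere at rank 4001 to 8000. All 137 V peaks among the first 1000 of replicate 1 by peak number, and all 143 among those of replicate 2, were in the combined list.

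The share overlapped by the other replicate was not higher on V in this way. At the highest score it was 82.4% on V (79.3% to 85.2%) and 86.7% elsewhere (85.5% to 87.7%) in replicate 1, and 85.3% on V (82.4% to 87.9%) and 85.6% elsewhere (84.5% to 86.7%) in replicate 2. Below the highest score it was 35.6% on V and 36.2% elsewhere in replicate 1, and 34.7% on V and 35.3% elsewhere in replicate 2. So V peaks of like score were more often in the combined list, and in the other replicate their share was close to that elsewhere or, for replicate 1 peaks at the highest score, lower. The V peaks as a whole did not stand high in the replicate lists. Their median rank was 9760.5 in replicate 1, against 9183 to 9835.5 on the other chromosomes, and 10299 in replicate 2, against 9265 to 10056.

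**Figure D4:**
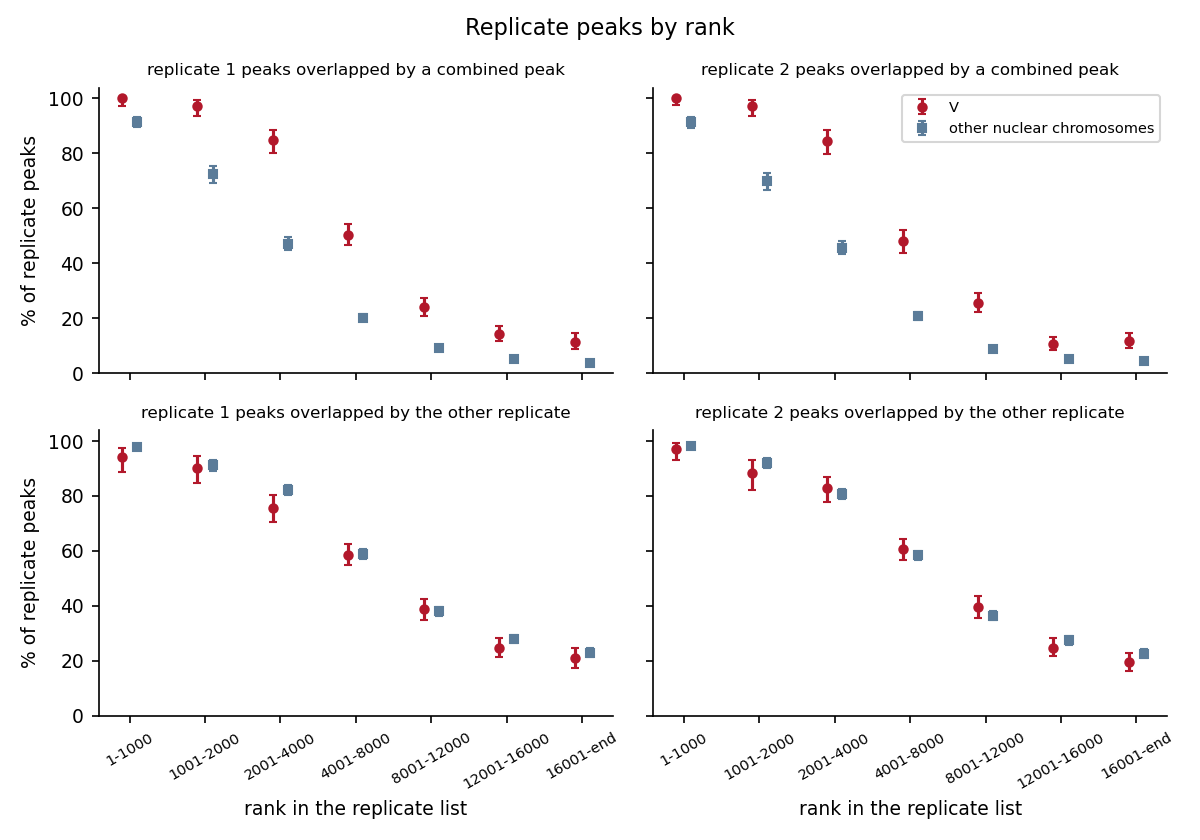
Share of replicate peaks (%) by rank in their own list, replicate 1 on the left and replicate 2 on the right, with peaks at the highest score (ranks up to 4569 and 4615) ordered by peak number. The upper row gives the share overlapped by a combined peak and the lower row that overlapped by the other replicate. Circles are V, squares the other 5 nuclear chromosomes, and bars exact 95% intervals. At rank 2001 to 4000 the combined list holds 84.8% of replicate 1 peaks on V, against 47.1% elsewhere.

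Replicate peaks of V that both replicates shared and the combined list lacked numbered 417 in replicate 1 (13.7%, 12.5% to 14.9%) and 423 in replicate 2 (13.7%, 12.5% to 15.0%). The other chromosomes had between 22.1% and 36.1% in replicate 1 and between 21.5% and 34.8% in replicate 2, so V had the smallest such share in both. Of the V peaks at the highest score, the first by peak number that the combined list lacked was V:13003386-13003701 in replicate 1 (rank 1158) and V:5580597-5580916 in replicate 2 (rank 1113), and the other replicate had each of them. Of the next 4 in each list, the other replicate had 0 of those in replicate 1 and 2 of those in replicate 2, which were V:12497764-12498083 (rank 1443) and V:12906630-12906949 (rank 2013).

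Conversely, 197 replicate 1 peaks and 140 replicate 2 peaks on V lay in a combined peak and were not overlapped by the other replicate. The first 5 V peaks of each list without a partner in the other replicate, all at the highest score and taken by peak number, lay in combined peaks. In replicate 1 the 3 after those at V:8445684-8445999 and V:5065211-5065526 were V:12728298-12728613 (rank 394), V:5032250-5032565 (rank 527) and V:6656699-6657014 (rank 660). In replicate 2 they began with V:13657327-13657646 (rank 708) and V:15059600-15059919 (rank 745).

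Peaks of V were often grouped. Joined where less than 5 kb lay between them, 703 (66.6%, 63.7% to 69.5%) stood in 226 clusters of 2 or more, with 57.1% for the whole list and 53.5% (51.7% to 55.4%) for the other chromosomes. The median distance to the nearest peak was 2281 bp on V and 4180 bp elsewhere. V held 31 of the 73 clusters of 5 or more peaks, and 217 of the 476 peaks in them. That is 20.6% of V peaks (18.2% to 23.1%), against 9.14% elsewhere (8.10% to 10.3%). Density and grouping cannot be told apart in these counts.

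The centre and the left arm carried these groups. Clustered peaks made up 68.5% on the left (63.4% to 73.3%), 72.3% in the centre (68.1% to 76.3%) and 51.4% on the right (44.6% to 58.1%). Of the 31 clusters of 5 or more peaks, 14 lay on the left, 14 in the centre and 3 on the right. Peaks in these large clusters were wider and higher in the list than isolated ones, with median widths of 378 and 305 bp and median ranks of 1334 and 2203.5. Both replicates found 84.8% of them (79.3% to 89.3%), 76.3% of the peaks in clusters of 2 to 4 (72.3% to 80.0%), 81.1% of those alone but not isolated (75.4% to 86.0%) and 73.4% of the isolated peaks (64.7% to 80.9%), so the share did not follow the degree of grouping.

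The fullest cluster was V:20744248-20779152, with 12 peaks near the right end, all found in both replicates. It contained 6 peaks wider than 1 kb, 4 of them wider than 2 kb, of the 13 on V that wide. From left to right the 12 had ranks 2539, 21, 1, 323, 2535, 25, 13, 48, 3218, 245, 115 and 2. The first-ranked peak, V:20747844-20757330, was 9487 bp wide, and the second, V:20772519-20779152, was 6634 bp wide. The other members reached down to rank 3218. Between them, V:20759650-20761358, V:20761666-20762452 and V:20763018-20763670 stood among the first 48 ranks.

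Its replicate peaks included some at the highest score and some near the end of the lists. Replicate 1 had 43 peaks there, with a median rank of 3345 and the last at rank 17170, and replicate 2 had 50, with a median rank of 4245.5 and the last at rank 18579. The cluster held 27.4 kb of peak, or 5.86% of all peak bases on V. Without it the right part of V held 87.3 kb of peak in place of 115 kb, while the median width on V was 338 bp.

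The gene pha-4 itself lies near this end of V. In RefSeq's WBcel235 table it stands between srxa-6 and elp-1, with 32 of 4995 protein-coding genes of V (0.641%) to its right, while 0.630% of the length of V lay to the right of the cluster in WS220. Positions were not matched between the builds. A share of genes and a share of length are unlike measures, so these values do not place the cluster at pha-4. The transgene carries a copy of pha-4, and signal from it cannot be told apart here from signal at the gene's own place.

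**Figure D5:**
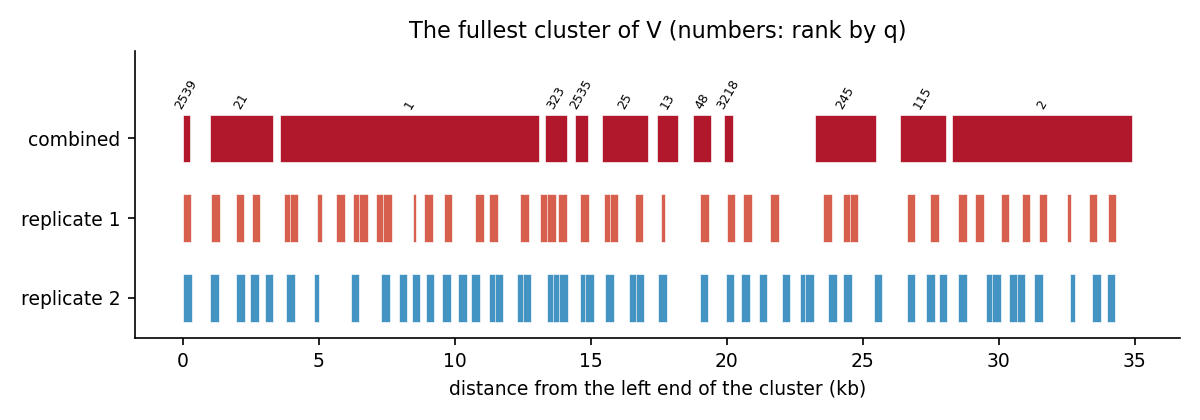
Peaks of the fullest cluster of V by distance from its left end (kb). Rows from top to bottom are the combined list, with each peak's rank by q, then replicate 1 and replicate 2. The 12 combined peaks include ranks 1 and 2, and the replicates have 43 and 50 peaks along the cluster.

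The next clusters were shorter and less fully covered. V:6220912-6234350, on the left, held 11 peaks over 13.4 kb, 63.4% of it covered, with V:6226827-6230084 (rank 10, 3258 bp, 6 peaks of each replicate) and V:6224253-6225491 (rank 37) at its core. Both replicates found 10 of its 11 peaks, and the exception was V:6220912-6221260 at its left edge, found in neither. V:10712215-10729771, in the centre, held 11 peaks over 17.6 kb, with ranks from 31 to 3775. Of these 8 were found in both replicates, 2 in replicate 1 only and 1 in replicate 2 only.

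V:10031155-10049261 held 10 peaks over 18.1 kb, covered to 24.4%, and only V:10047788-10049261 (rank 46) stood in the first 100 ranks. V:20410390-20424613 held 9 peaks over 14.2 kb, led by V:20418624-20419225 (rank 39), with 8 found in both replicates. These clusters thus joined 1 or a few foremost peaks to neighbours of lower rank. Across V, 109 of the 226 clusters had every peak found in both replicates, and 7 had none. No like count for the other chromosomes is given here.

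Isolated peaks, with no other combined peak within 20 kb, numbered 124 on V (11.8%, 9.87% to 13.9%), with 16.5% for the whole list. They made up 10.1% of peaks on the left (7.18% to 13.7%), 8.81% in the centre (6.42% to 11.7%) and 20.7% on the right (15.6% to 26.7%). Of the isolated peaks 17 were found in replicate 1 only, 8 in replicate 2 only and 8 in neither (6.45%, 2.83% to 12.3%). The share found in neither was 2.75% for all of V and 1.41% for the whole list. Among all peaks outside clusters, isolated or not, both replicates found 78.4% on V and 91.4% elsewhere. Replicate peaks were also sparse around them, with a median of 4 in each replicate within 20 kb, against 16 and 18 around peaks of large clusters.

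The foremost isolated peak was V:1803917-1806358, with rank 3, 2442 bp wide and 36.4 kb from its nearest neighbour. It held 6 replicate 1 peaks and 5 replicate 2 peaks, with the best of each at the highest score. It was 1 of only 2 isolated peaks wider than 1 kb. The next were V:13462581-13463422 (rank 138, 842 bp), V:7237141-7237534 (rank 190, 394 bp), V:18723448-18723986 (rank 192, 539 bp) and V:5329671-5330304 (rank 252, 634 bp), all found in both replicates. The peak at 18723448 lay 76.9 kb from any other.

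The peaks farthest from any other were lower in rank. V:15298621-15298896 (rank 2377) lay 105.9 kb from any other peak and was found in neither replicate, whose nearest peaks were 31430 and 72528 bp away. V:3094390-3094683 (rank 3809) was found in replicate 2 only and V:2904105-2904474 (rank 2923) in replicate 1 only, at 100.4 and 98.2 kb from their nearest neighbours. The longest stretches of V without a combined peak, picked after the values were seen, were V:2290671-2600558 of 309.9 kb and V:17353145-17659084 of 305.9 kb. Replicate 1 had 4 and 10 peaks inside them and replicate 2 had 7 and 18, and only 1 peak of each replicate in each stretch overlapped the other replicate.

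Among the other foremost peaks of V, V:14684568-14689057 (rank 8) was 4490 bp wide and held 10 replicate 1 and 7 replicate 2 peaks. V:8934928-8938664 (rank 12) was 3737 bp wide with 5 and 6, V:13787319-13789906 (rank 14) was 2588 bp wide with 5 and 4, and V:8383599-8386539 (rank 19) was 2941 bp wide with 6 and 4. In each of these 4 the best peak of both replicates had the highest score, so the replicate scores do not order them. Of the first 100 peaks of V by q, which reached rank 292, 99 were found in both replicates. The share was also high elsewhere, at 98.5% of the peaks in the first 972 ranks.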

How the data were processed

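Peaks were measured by ChIP-seq in 2 PHA-4 ChIP samples, grouped by title, and depth is unknown. The combined list holds a q-value per peak, deposited by the authors and made with PeakSeq per the file headers. The replicate lists hold a score per peak whose caller is named spp_via_IDR per the file headers. Comment lines of the combined list record a liftover to WS220, with 0 of the affected peaks on V. The sources used here name no aligner, version, threshold, use of Input or way of joining replicates. Of 3 lists, the replicate 2 list held 1 repeated interval.

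The members are rows of chromosome V, and q and score served only to rank. Ties were ordered by deposited peak number in the replicate lists and by chromosome and start in the combined list. The length of V, 20910913 bp, is the largest coordinate in the lists. Overlap meant at least 1 bp, clusters were joined under 5 kb, and isolated peaks stood at least 20 kb from others. Named peaks were those of lowest q, the widest, the fullest clusters, the most isolated and the best-ranked of each replicate status. The members and lists were chosen with earlier results of these data known. Classes by rank, score and width, the weighting and the picked stretches were added after values were seen. Gene starts and motifs, planned for a WS220 genome, were not run. The scripts were tested on simulated data and used scipy 1.17.1, pandas 2.3.3, numpy 2.4.6 and matplotlib 3.10.9 under Python 3.11.15.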

Additional observations from a re-analysis of the deposited data

How the results depend on the processing

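Peaks found in both replicates, 78.8% of V, were 59.1% when the overlap had to cover 50% of each peak, 69.5% with midpoints within 200 bp, 28.7% with replicate lists limited to 3890 peaks, 59.4% with the better-ranked 50% of each list and 92.6% for the V peaks in the first 1945 ranks. V stayed below each other chromosome under each of the overlap and list-length settings. Found in the 1 remaining replicate were 85.7% to 90.3%, and 78.5% were found in both without the fullest cluster. Peaks found in 1 replicate only, 18.5%, became 21.8%, 24.9%, 33.2%, 33.5% and 6.73% under the same 5 settings. The share in the centre of V, 45.2%, became 65.3% of the peaks in the central 50% of the length, 61.7% between 6 and 16 Mb, 41.7% with peaks joined, and 42.0% and 41.4% in the replicate lists. Clustered peaks, 66.6%, became 46.4% joined under 2 kb, 76.9% under 10 kb, 51.5% in the first 1945 ranks and 59.2% among peaks found in both. Isolated peaks, 11.8%, became 23.1% at 10 kb, 1.90% at 50 kb, 23.7% in the first 1945 ranks and 14.0% among peaks found in both. Replicate 1 peaks on V shared with replicate 2, 45.9%, became 36.4%, 40.2%, 54.9% and 52.9% under the overlap and list-length settings, and replicate 2 peaks, 45.7%, became 36.1%, 40.0%, 55.6% and 54.1%. Combined peaks have fewer matches in shorter lists and under stricter overlap by construction. The shared part of the replicate peaks was larger in shorter lists, and the cause was not tested. Lists limited to 3890 peaks are chosen by peak number among peaks of equal highest score. Of 128 values of single named peaks under these settings, 26 moved and 102 did not. No paired analysis was possible because the Input samples that share the replicate numbers were not analysed here. Depth is unknown, so a peak missing from 1 list was not detected there, which does not show that binding was absent.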
